A study of Mus musculus with 24 samples.

Results

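The zinc finger genes numbered Zfp700 to Zfp999 were followed across 8 conditions of mouse embryonic fibroblast (MEF) lines that lack increasing numbers of histone H3 lysine 9 (H3K9) methyltransferases. The members were all gene rows of the deposited count table whose mouse symbol is Zfp followed by exactly 3 digits starting with 7, 8 or 9, leaving out Zfp981, Zfp982, Zfp985, Zfp990, Zfp992 and Zfp993, which gave 124 of 47937 genes. RNA was sequenced as stranded total RNA with 3 libraries per condition, 24 in all. All cells carried a conditional Eset1 (Setdb1) allele, which 4-hydroxytamoxifen (4-OHT) deletes through an inducible Cre recombinase. The control, WT, was this Eset1 cKO line without 4-OHT, and E1 was the same line after 4-OHT. E1 S1S2 was a clone that in addition carried mutations of Suv39h1 and Suv39h2, and 6KO1 was derived from it by mutating Eset2, G9a and Glp as well, both after 4-OHT. In the other branch, E2 was an Eset2-mutant clone without 4-OHT and E1E2 the same clone after 4-OHT. E1E2 G9Gl was a derived clone with G9a and Glp mutated, and 6KO2 was derived from that clone by mutating Suv39h1 and Suv39h2, again both after 4-OHT. The added mutations were frameshifts made with CRISPR/Cas9. Each line was 1 clone, so the effect of a mutation and that of the clone cannot be told apart, and WT and E2 differ from their partners in both 4-OHT and Eset1. The labels' treatment text names 4-OHT for every library, but the titles mark WT and E2 as controls and the genotypes give them the conditional allele, and these were followed. The study's methods call the 3 libraries of a line biological replicates, and the labels do not say whether they came from separate cultures, so p-values measure the spread between these libraries.

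Most of these genes encode KRAB zinc finger proteins. Their C2H2 fingers, short loops held by a zinc ion, read DNA sequence, and the KRAB box binds Trim28, which brings in Setdb1 (Eset1), the enzyme that places trimethylation on H3K9, and HP1 proteins that bind this mark. Many known targets of the family are endogenous retroviruses and other transposable elements, the genes lie in clusters of near copies, and several of the clusters themselves carry H3K9 trimethylation.

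A KRAB box was found in the translated coding sequence of 95 members, 27 had a coding sequence without one, and 2 (Zfp783 and Zfp939) are annotated as pseudogenes. The median number of C2H2 fingers was 11 in members with a KRAB box and 6 in coding members without one, and the highest number was 23. The members lay on 17 chromosomes, with 25 on chromosome 7, 21 on chromosome 17, 14 on chromosome 8, 13 on chromosome 2 and 10 each on chromosomes 4 and 13. Of them, 62 lay in 10 groups of at least 4 members in which neighbours were no more than 500 kb apart, and 36 had no other member that near. Near copies matter for counting: 35 members shared at least 10% of the 75-base windows of their transcripts, the read length used, with another gene, while 49 shared none. The reads of such members can be split between copies, and their counts are uncertain. After the filter on low counts 111 members were tested. The other 13 were Zfp709, Zfp711, Zfp735, Zfp781, Zfp811, Zfp819, Zfp831, Zfp872, Zfp879, Zfp957, Zfp967, Zfp968 and Zfp969, and 4 of these (Zfp709, Zfp711, Zfp735 and Zfp872) had no read in any library.

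Promoter windows from RefSeq (GRCm38.p6, 250 bases before to 50 bases after the start) were found for 107 members. All of these windows held at least 1 CG dinucleotide, the site of DNA methylation, against 94.2% of the windows of all 27025 genes with one. The median count of CG was 9 in members (quartiles 6 and 16.5), 16 in Zfp1 to Zfp699 and 7 in all genes. In the 6 members on chromosome 4 with a window the median was 4.5. The 250 bases before the start are printed 5′ to 3′ with each CG in capitals for 4 chromosome 4 members called higher in both lines that lack all 6 enzymes (Zfp979, Zfp980, Zfp987 and Zfp988), for their neighbour Zfp984, which was called in no comparison, and for Zfp763 and Zfp827, which moved in opposite directions in E1E2 G9Gl. In 6KO1, Zfp984 fell just short of the fold limit, and DESeq2 called it higher there.
Zfp979, chr4:147642509-147642758, minus strand: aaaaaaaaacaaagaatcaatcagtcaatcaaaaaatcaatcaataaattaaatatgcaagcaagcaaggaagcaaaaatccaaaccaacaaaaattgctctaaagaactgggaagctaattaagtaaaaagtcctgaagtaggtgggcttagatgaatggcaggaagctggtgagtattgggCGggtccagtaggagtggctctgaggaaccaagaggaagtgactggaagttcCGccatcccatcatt
Zfp980, chr4:145670447-145670696, plus strand: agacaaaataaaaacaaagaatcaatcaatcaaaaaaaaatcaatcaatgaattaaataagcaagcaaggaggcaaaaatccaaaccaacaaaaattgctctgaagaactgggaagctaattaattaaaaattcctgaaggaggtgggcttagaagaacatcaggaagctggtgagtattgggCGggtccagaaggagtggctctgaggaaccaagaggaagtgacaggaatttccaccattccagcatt
Zfp987, chr4:146097062-146097311, plus strand: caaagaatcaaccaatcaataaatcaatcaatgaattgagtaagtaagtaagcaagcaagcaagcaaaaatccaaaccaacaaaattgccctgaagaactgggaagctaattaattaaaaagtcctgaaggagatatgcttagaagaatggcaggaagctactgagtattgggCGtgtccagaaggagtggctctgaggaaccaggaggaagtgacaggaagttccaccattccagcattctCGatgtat
Zfp988, chr4:147305354-147305603, plus strand: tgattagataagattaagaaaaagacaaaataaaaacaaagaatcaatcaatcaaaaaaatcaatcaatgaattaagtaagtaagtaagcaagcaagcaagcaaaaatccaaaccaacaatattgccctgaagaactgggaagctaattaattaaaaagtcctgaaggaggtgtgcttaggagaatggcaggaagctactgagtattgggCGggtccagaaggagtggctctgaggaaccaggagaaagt
Zfp984, chr4:147809789-147810038, minus strand: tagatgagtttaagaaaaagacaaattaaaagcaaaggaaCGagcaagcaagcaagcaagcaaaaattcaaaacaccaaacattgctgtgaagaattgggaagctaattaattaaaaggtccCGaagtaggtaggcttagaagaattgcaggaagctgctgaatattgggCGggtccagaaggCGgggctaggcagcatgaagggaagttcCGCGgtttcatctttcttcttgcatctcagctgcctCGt
Zfp763, chr17:33033382-33033631, minus strand: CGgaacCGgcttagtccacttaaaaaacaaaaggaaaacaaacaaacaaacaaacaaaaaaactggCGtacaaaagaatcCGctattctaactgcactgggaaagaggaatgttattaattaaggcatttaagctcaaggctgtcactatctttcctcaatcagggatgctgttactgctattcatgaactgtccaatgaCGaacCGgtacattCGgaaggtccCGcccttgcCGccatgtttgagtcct
Zfp827, chr8:79028187-79028436, plus strand: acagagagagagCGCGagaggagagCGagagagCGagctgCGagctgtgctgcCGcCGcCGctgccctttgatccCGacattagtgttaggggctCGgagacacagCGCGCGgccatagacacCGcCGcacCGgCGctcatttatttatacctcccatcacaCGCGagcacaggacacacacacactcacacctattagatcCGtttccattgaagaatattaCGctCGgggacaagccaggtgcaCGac
Zfp979, Zfp980, Zfp987 and Zfp988 held only 1 or 2 CG in these 250 bases, Zfp984 held 7, Zfp763 held 9 and Zfp827 held 23. Over the 300-base windows these 4 members were 88.6% to 96.2% identical in pairwise alignments, over 263 to 295 aligned bases. Zfp984 was 79% to 80.2% identical to each of them, while the window of Zfp933, another neighbour, aligned with no more than 27 bases of any of these chromosome 4 windows. The longest run common to the 5 printed chromosome 4 promoters, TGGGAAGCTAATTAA, was found on either strand in the windows of these 5 members (4.67% of the 107) and of 11 of all 27025 genes (0.0407%). The run was chosen from these promoters, so its count in them is a description.

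Reads assigned to genes numbered 19541909 to 31489070 per library, and the members took 0.158% to 0.265% of them. WT replicate 2 stood apart from the other WT libraries, with a chi-square per gene of 62.8 and 52.5 against 4.72 between replicates 1 and 3. Whole-gene counts check the labels only in part, since a frameshift or the loss of some exons can leave a transcript: the log2 fold change of Setdb1 was -0.57 in E1 and that of Ehmt2 (G9a) lay between -0.56 (6KO2) and -1.69 (E1E2 G9Gl) in the lines with this gene mutated. Setdb1 was at -0.31 in both E2 and E1E2, with no fall after 4-OHT in that clone (0.0070 in E1E2 against E2). Suv39h2 was at 0.76 in E1 S1S2 and 0.14 in 6KO1. For these the whole-gene count shows no loss. For the proteins, the study reports from western blots that the mutant gene products were absent and Eset1 deletion was efficient. The 10 fibroblast markers summed to 94897 to 234715 normalized counts per library. Of them, 5 were called lower in 6KO1 (all genes 10.2%) and 4 in E1 S1S2 (all genes 5.11%). In E1E2 G9Gl 2 were called higher and 1 lower, and 1 was lower in E1 and 2 in each of E2, E1E2 and 6KO2. Thy1 was at or near 0 in E1 S1S2, 6KO1 and 6KO2. Twist1 was 288 to 377 in WT and 10.8 to 21.8 in 6KO1. Pdgfra was 117 to 151 in WT, 1.74 to 5.87 in 6KO1 and 11.6 to 15.5 in E1E2 G9Gl. Of 4 germ cell markers none passed the filter. Summed 2-cell-stage genes were 4.26 to 6.39 in WT, 34.2 to 45.4 in E1 S1S2 and 83.1 to 133 in 6KO1, where in both 3 of 3 tested were called higher, 17.7 to 44.3 in E1E2 and 37.6 to 43.4 in 6KO2, where 2 were called higher, and 1.08 to 2.59 in E1E2 G9Gl. Summed leukocyte markers were 92.2 to 109 in WT, 543 to 615 in 6KO1, where 3 of the 4 were called higher, and 620.4 to 653 in E1E2 G9Gl, where 2 of the 4 were called higher, with Ptprc and Itgam at 0 in all WT libraries. Summed neuronal markers were 683 to 843 in WT, 2284 to 2412 in E1E2 G9Gl and 4001 to 4445 in 6KO2, and in both all 4 were called higher. Summed epithelial markers were 30.9 to 50.2 in WT and reached 446 in 6KO1, where 1 was called higher and 1 lower. Most of this sum was Krt8, at 18.1 to 31.1 in WT and 411 to 436 in 6KO1, while Epcam went from 7.31 to 14.1 to 0 to 3.52. Summed endothelial markers were 11 to 14.9 in WT and reached 129 in 6KO2. Summed pluripotency markers lay between 4.89 and 35, with 1 called higher in 6KO1 and 1 in E1E2 G9Gl. Esrrb was at 0 in WT and at 17.3 to 25.9 in E1E2 G9Gl. The part of these marker changes in the results below was not tested. In bulk RNA, fewer cells of a type and less RNA per cell cannot be told apart.

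In WT the members were expressed over a wide range. Levels between genes are given as CPM per kb, the count scaled for library size and exon length. The WT level of the 111 tested members ran from 0 to 28.9 CPM per kb, with a median of 2.26 and quartiles of 0.897 and 4.65. The 5 highest were Zfp706 at 28.9 ± 2.46 (mean ± SD, n = 3), Zfp740 at 24.3 ± 1.31, Zfp948 at 19.8 ± 3.8, Zfp869 at 17.1 ± 1.06 and Zfp871 at 10.9 ± 0.538 CPM per kb. In this order Zfp740 and Zfp948, and Zfp948 and Zfp869, lie within their SD of each other, while Zfp706 lies above Zfp740 and Zfp871 below Zfp869 by more than theirs. None of these 5 was called in any of the 12 comparisons. At the other end, 29 tested members were below 1 CPM per kb and 4 (Zfp882, Zfp936, Zfp980 and Zfp987) had no read in any WT library.

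A gene was called when edgeR's quasi-likelihood test, with Benjamini-Hochberg adjustment over all 18565 tested genes, gave an adjusted p of at most 0.01 and the fold change was at least 2. Of the 111 tested members, 50 were called in at least 1 of the 12 comparisons, 37 of them in at least 1 mutant line against WT, and 61 in none. The share of members called higher was near that of all genes in most comparisons, and at most 4 were called lower in 6KO1, E1E2 G9Gl and 6KO2. In 6KO1, 23 members were called higher and 2 lower, or 20.7% and 1.8%, beside 20.6% and 10.2% of all genes. The median log2 fold change of the members in 6KO1 was 0.57, with 93 of 111 above 0, beside 0.061 and 52.9% over all genes and 0.23 over the 221 tested genes Zfp1 to Zfp699. This is given as a description, and the median was the same with members at 0 in WT set to their lower bound.

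**Figure D1:**
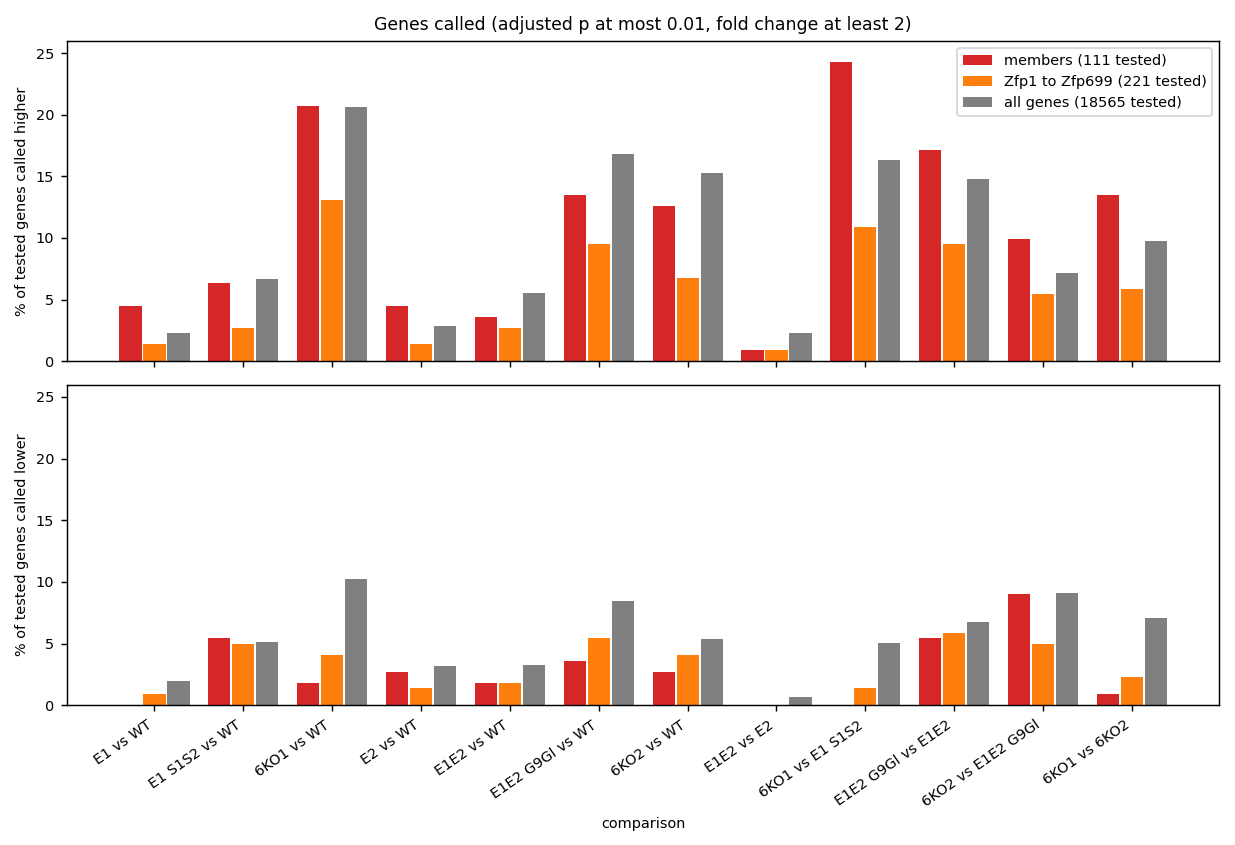
Percentage of tested genes called higher (upper panel) and lower (lower panel) in each of the 12 comparisons, for the members, for Zfp1 to Zfp699 and for all genes, both axes starting at 0. The red bars for 6KO1 against WT reach 20.7% higher and 1.8% lower, and the grey bars for all genes reach 20.6% and 10.2%.

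After deletion of Eset1 alone (E1 against WT), a small set of chromosome 4 members was higher. Zfp978, Zfp979, Zfp980, Zfp986 and Zfp988, all KRAB zinc finger genes, were called higher, which is 5 of 111 members (4.5%, all genes 2.27%), and none was called lower (all genes 1.99%). With no fold minimum and no adjustment, 18 of 111 members had a p under 0.05 and a lower value. Over all genes 2867 of 18565 did, and DESeq2 also called no member lower. Zfp978 (chr4:147361303-147391004 in GRCm38) had 0, 0 and 2.01 normalized counts in the WT libraries and 12.7, 17.8 and 16.7 in E1. The groups did not overlap, and the ratio of means was 23.9-fold (95% counting interval 6.27 to 202). Zfp988 rose from 1.07, 3.65 and 2.01 to 23.4, 19.7 and 26.4, a log2 fold change of 3.27 ± 0.47 (± SE, edgeR adjusted p = 1.4e-05). Zfp986 rose from 1.07, 0 and 1 to 12.7, 14.8 and 9.67, or 18.6-fold (95% counting interval 4.82 to 159). All 3 were low in absolute terms, at no more than 26.4 normalized counts in E1. When only the 6 libraries of E1 and WT were fitted, Zfp986 was no longer called. Other calls were lost more widely: Zfp980, with 9 raw reads in E1 and none in WT, was lost with DESeq2 (adjusted p = 0.0122), without E1 replicate 3 and without each of the WT libraries. Zfp979 was lost without E1 replicate 2 or 3 and without WT replicate 1 or 3, with edgeR adjusted p of 0.0227 to 0.0374. The count fell from 5 to 3 without E1 replicate 3, WT replicate 1 or WT replicate 3. All 5 lie on chromosome 4.

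The same treatment of the Eset2-mutant clone (E1E2 against E2) gave a different picture. Only Zfp750, a regulator of epidermal differentiation, was called higher (0.901% of members, all genes 2.32%). No member was called lower (all genes 0.657%) by edgeR or DESeq2. At an unadjusted p under 0.05, 20 of 111 members and 2558 of all 18565 genes were lower. Zfp750 had 3.57, 1.79 and 5.94 normalized counts in E2 and 13.8, 14.4 and 14.5 in E1E2, a log2 fold change of 1.95 ± 0.38 (edgeR adjusted p = 7.0e-04), which without E2 replicate 2 had an adjusted p of 0.0163. The difference between the 4-OHT effects in the WT line and in the E2 clone was tested as an interaction in the same fit, a test added after the data were seen. It was called for 5 members, in each with the more positive log2 fold change in the WT line (all genes 1.41% with a more positive and 2.01% with a more negative one). For Zfp978 the log2 fold change was 4.34 in the WT line and 0.53 in the E2 clone, a difference of 3.80 ± 0.94 (edgeR adjusted p = 0.00684). For Zfp986, Zfp979, Zfp712 and Zfp759 the difference was 3.74, 1.80, 1.46 and 1.43. The log2 fold change of Setdb1 RNA after 4-OHT was -0.57 in the WT line and 0.007 in the E2 clone. Zfp979 was already higher in E2 than in WT, at means of 45.4 and 20.4. The part of these in the difference was not tested. Zfp712, which overlaps Gm46440 on the opposite strand, and Zfp759, its neighbour on chromosome 13, were themselves called in neither 4-OHT comparison, and their fold changes had opposite signs (0.74 and -0.73 for Zfp712, 0.72 and -0.71 for Zfp759 on the log2 scale): Zfp712 had 29.8, 41.1 and 20.1 in WT, 49.8, 49.4 and 53.6 in E1, 65.4, 61.9 and 60.6 in E2 and 34.5, 35.4 and 43.4 in E1E2.

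With Suv39h1 and Suv39h2 mutated beside Eset1 (E1 S1S2 against WT), Zfp978, Zfp979, Zfp980 and Zfp988 on chromosome 4 had higher mean counts than in E1 and several members elsewhere were lower than in WT. 7 members were called higher (6.31%, all genes 6.65%) and 6 lower (5.41%, all genes 5.11%), shares close to those over all genes. Zfp978 reached 175, 192 and 181 normalized counts, or 276-fold (95% counting interval 76.2 to 2286) above WT. Zfp979 went from 16, 30.1 and 15.1 in WT to 114, 136 and 148, a log2 fold change of 2.67 ± 0.23 (edgeR adjusted p = 1.9e-09). Zfp980 reached 21.9, 21.7 and 18.9 from 0 in WT, at least 21.1-fold against a floor of 3 raw reads over the WT group. Zfp986, at a mean of 8.73 beside 12.4 in E1, and Zfp988 were also called higher, but Zfp986 was not called when only the 6 libraries of E1 S1S2 and WT were fitted. Zfp933, in the same part of chromosome 4, was lower without a call, at a mean of 290.0 beside 467 in WT. Also called higher were Zfp750, at 32.1, 33.5 and 25.2, and Zfp809, at 847, 829.6 and 871 beside 334, 342 and 359 in WT. The Zfp809 protein silences murine leukemia viruses through their primer binding site. All 3 tested 2-cell-stage genes were called higher in this line too, and their part was not tested.

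The 6 lower members of E1 S1S2 were Zfp760, Zfp764, Zfp799, Zfp810, Zfp850 and Zfp983, all KRAB zinc finger genes. Zfp760 had 263, 389 and 273 normalized counts in WT and 71.2, 73.4 and 73.8 in E1 S1S2, a log2 fold change of -2.09 ± 0.13 (edgeR adjusted p = 6.8e-12). Zfp799, which overlaps the gene Gm26693 on the opposite strand, had 197, 211 and 218 in WT and 46.2, 48.9 and 49.5 in E1 S1S2 (-2.11 ± 0.13 on the log2 scale). For both genes the groups did not overlap. Zfp850 fell from 839, 1239 and 819.9 to 378, 417 and 402. Zfp764 fell to 0, 0 and 1.8 from 9.59, 27.4 and 22.1, with 13.2% of its windows shared: WT was higher than E1 S1S2 by 35.2-fold (95% counting interval 9.33 to 297), than 6KO1 by 22.2-fold (95% counting interval 7.25 to 111) and than E1E2 G9Gl by 25.8-fold (95% counting interval 6.85 to 218). It was called lower in all lines but E1, in which it had 10.7, 5.92 and 10.6. When only the 6 libraries of a comparison were fitted, the call was kept in E1 S1S2. It was lost in 6KO1, E2, E1E2, E1E2 G9Gl and 6KO2.

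**Figure D2:**
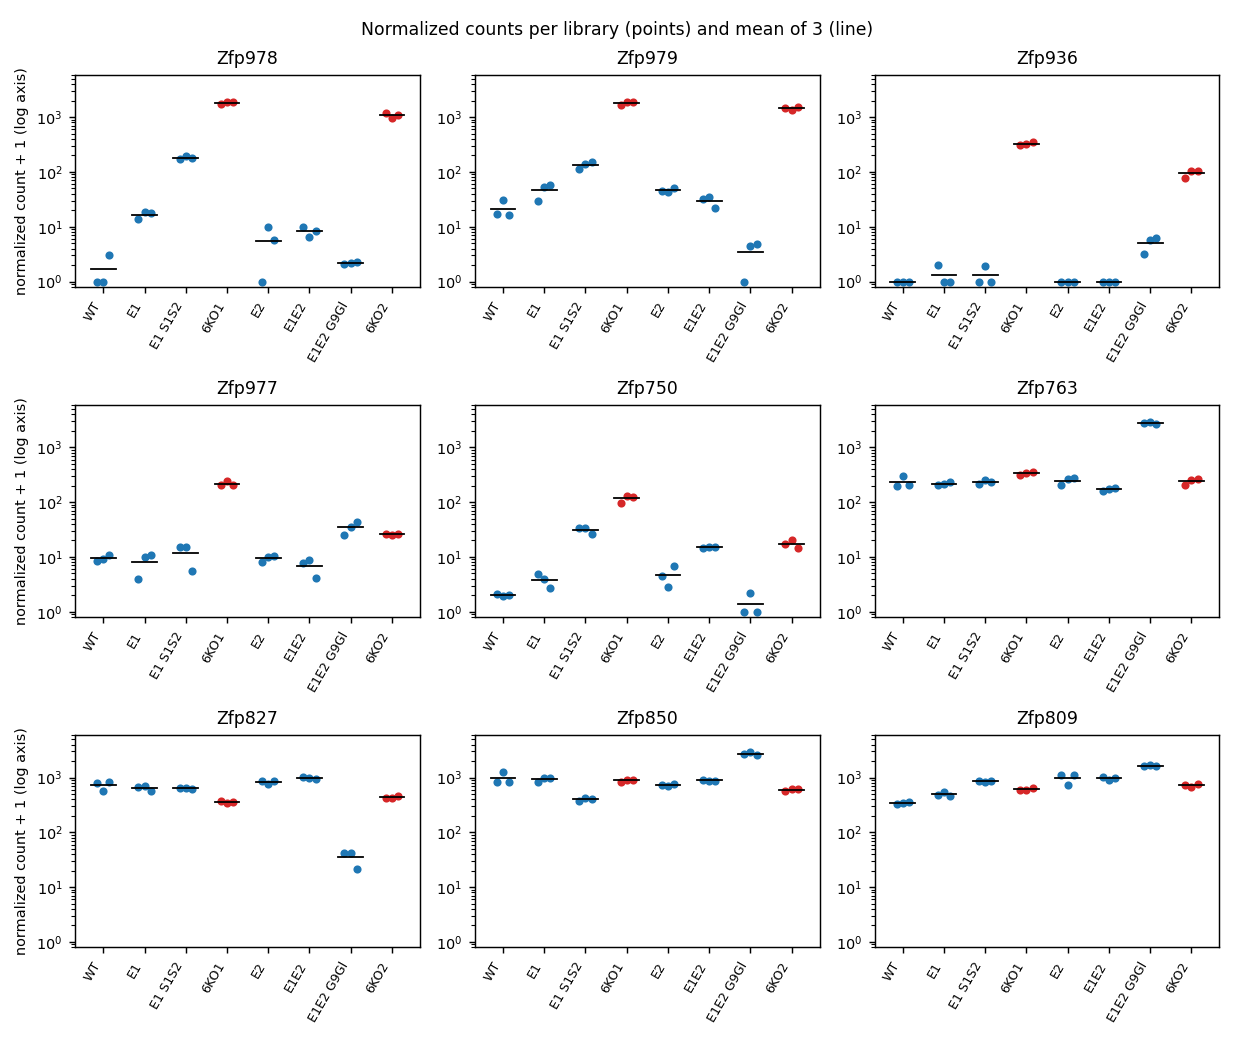
Normalized count plus 1, on a log axis, of 9 members in each of the 24 libraries (points, 3 per condition, red for 6KO1 and 6KO2) with the mean of the 3 as a line. Zfp978 and Zfp979 are highest in 6KO1 and 6KO2 and lowest in WT and E1E2 G9Gl, while Zfp763 and Zfp850 are highest and Zfp827 lowest in E1E2 G9Gl.

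The line that lost all 6 enzymes in the first branch (6KO1) had the highest levels of the chromosome 4 members, and members on chromosome 7 that were at or near 0 in WT were expressed. Zfp978 had 1710.1, 1918 and 1862 normalized counts, Zfp979 1642, 1909.7 and 1916, and Zfp988 912, 1062 and 1072. These members had mean normalized counts of 0.669, 20.4 and 2.24 in WT, so that the ratio for Zfp978 was 2771-fold (95% counting interval 767 to 22886) and the log2 fold change for Zfp979 was 6.45 ± 0.20 (edgeR adjusted p = 3.6e-18). Zfp980 and Zfp987, with no read in WT, had 489.7, 532 and 519 and 249.7, 269 and 329, at least 519-fold and at least 285-fold higher. Zfp986 at 158, 184 and 197 and Zfp989 at 79.1, 95.7 and 84.1 had ratios of 271-fold (95% counting interval 74.7 to 2243) and 262-fold (95% counting interval 46.6 to 10380.1). For all 7 the groups did not overlap. Sharing of windows with other genes was 23.6% for Zfp979 and 54.8% to 81.7% for the other 6, mostly with each other or with Zfp600, Rex2 and Gm8935, so how much each copy rose is uncertain. The remaining members on chromosome 4, Zfp933, Zfp984 and Zfp991, were not called here, with log2 fold changes of 0.31, 0.99 and 0.96. Zfp984 was called with DESeq2, RLE factors or the replicate block. Both Zfp984 and Zfp991 were called without 6KO1 replicate 1 and without WT replicate 2.

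On chromosome 7, Zfp936 (chr7:43114229-43192109) had no read in WT and 311, 326 and 349 normalized counts in 6KO1, at least 332-fold higher, with only 7.4% of its windows shared. Its neighbour Zfp977 (chr7:42579783-42592547, 0.3% shared) rose from 7.46, 8.22 and 10 to 208, 238 and 206, a log2 fold change of 4.64 ± 0.25 (edgeR adjusted p = 1.3e-13). Between and beside them, Zfp976 rose by 1.13 ± 0.13 on the log2 scale, while Zfp975 (0.59), Zfp715 (0.58) and Zfp719 (-0.032) were not called. Zfp750 on chromosome 11, which has no near copy, reached 95.8, 131 and 124, or 118-fold (95% counting interval 40 to 574) above WT. The other members called higher were Zfp712, Zfp759, Zfp772, Zfp773, Zfp784, Zfp791, Zfp949, Zfp950, Zfp951, Zfp952, Zfp958 and Zfp983, named after their values were seen where they fall outside the naming rule, with log2 fold changes from 1.03 (Zfp949) to 2.04 (Zfp773). The call of Zfp949 was lost without WT replicate 1 or 3, and that of Zfp976 without WT replicate 1. Zfp773 had 3.2, 4.57 and 2.01 in WT and 10.6, 13.1 and 18.6 in 6KO1. Zfp950 had 551, 609 and 558 in WT and 1440.2, 1508 and 1574 in 6KO1. Zfp827, which is linked to telomere maintenance, fell from 809, 573 and 831 to 379.8, 339 and 355 (-1.04 ± 0.12), a fold change that dropped below 2 without WT replicate 1 or 3 (-0.97 and -0.95). Without WT replicate 2, the library that stood apart, 34 members were called higher in place of 23. Summed leukocyte markers were 543 to 615 in this line and 92.2 to 109 in WT, and the 2-cell-stage genes Zscan4c, Zscan4d and Zfp352 were also called higher, as in E1 S1S2. The part of these in the result was not tested.

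Against its parent clone E1 S1S2, 6KO1 had 27 members called higher (24.3%, all genes 16.3%) and none lower (all genes 5.02%). DESeq2 also called none lower. At an unadjusted p under 0.05, 6 of 111 members and 5466 of all 18565 genes were lower. The chromosome 4 members rose further, Zfp978 by 3.32 ± 0.13 and Zfp979 by 3.78 ± 0.15 on the log2 scale. Zfp987 and Zfp989 had been at 0.783, 0.906 and 1.8 and 1.57, 1.81 and 2.7 in E1 S1S2 and were among the largest rises. Zfp936 had a single raw read in the E1 S1S2 libraries, a ratio of 1147-fold (95% counting interval 205 to 45329). Of the genes that were lower in E1 S1S2, Zfp850 was within the WT range in 6KO1 and Zfp760, Zfp799, Zfp810 and Zfp983 were above it: Zfp760 had 400.0, 409 and 440.1 (log2 fold change 2.51 ± 0.13 over E1 S1S2), Zfp799 had 295, 335 and 378 (2.80 ± 0.13), and Zfp810, Zfp850 and Zfp983 differed by 2.42, 1.15 and 2.95. Zfp708, a regulator of a retrotransposon family, was called at 1.02, but 94.3% of its windows lie also in the overlapping gene Gm28557 and the fold change fell below 2 under 5 of the alternatives, at 0.95 without 6KO1 replicate 3 and 0.98 without 6KO1 replicate 2.

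**Figure D3:**
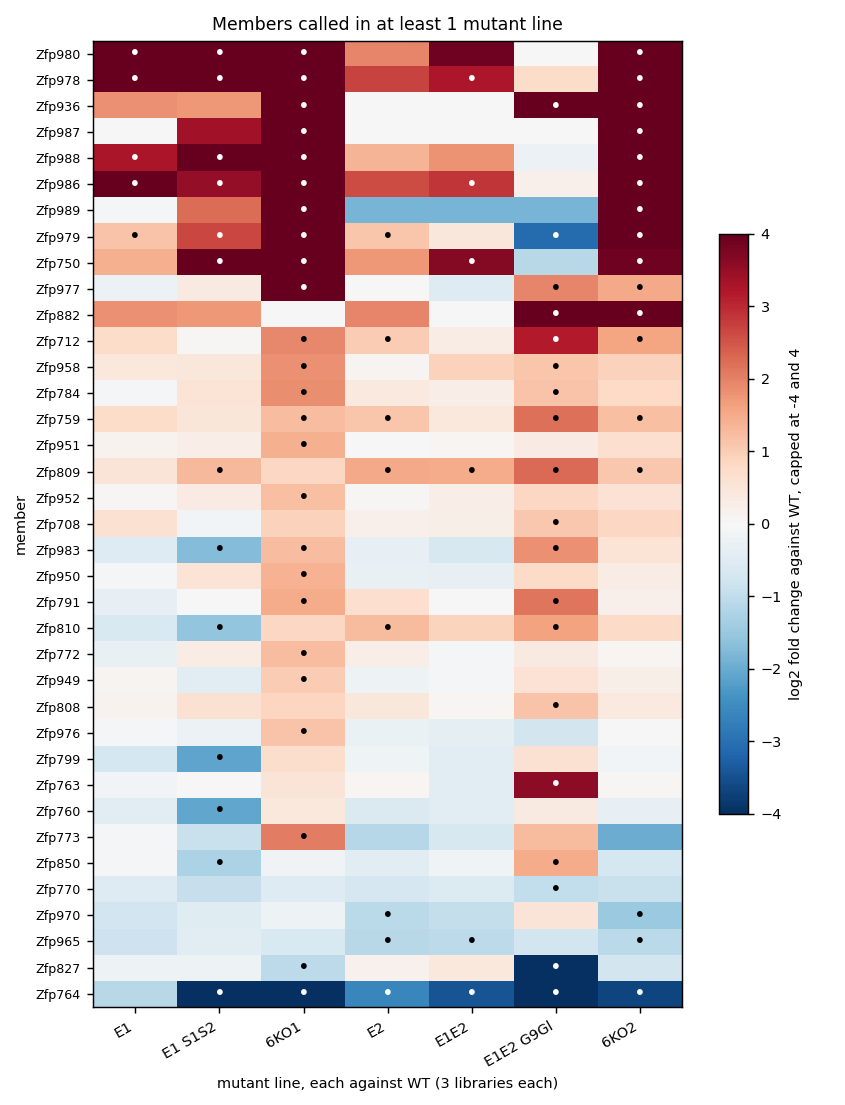
Log2 fold change against WT, capped at −4 and 4 for display, of the 37 members called in at least 1 of the 7 mutant lines, ordered by the mean of 6KO1 and 6KO2, with a dot where the member was called. Values of members without reads in a group are fitted and depend on the fit's prior count. The upper rows are red in both 6KO lines. In E1E2 G9Gl most are pale, but Zfp936 and Zfp977 are red and Zfp979 is blue. Zfp989 (-1.86) and Zfp750 (-1.11) are a lighter blue there, without a call.

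In the second branch, the Eset2-mutant clone without 4-OHT (E2 against WT) had 5 members called higher (4.5%, all genes 2.9%) and 3 lower (2.7%, all genes 3.21%). The largest rises were those of Zfp809 and Zfp810, KRAB genes close to each other on chromosome 9. Zfp809 had 1135, 739 and 1130.0 normalized counts in E2 (1.53 ± 0.11, edgeR adjusted p = 3.1e-10). Zfp810 rose from 26.6, 40.2 and 43.2 to 84.5, 101 and 77.2 (1.26 ± 0.16), against a fall in E1 S1S2. Zfp979 was called higher at 44, 42.1 and 49.9, but not without E2 replicate 3 or without WT replicate 1 or 3, with edgeR adjusted p of 0.0153 to 0.0214. Zfp712 and Zfp759 were called at 1.03 and 1.12, Zfp712 not without WT replicate 3 or with only the 6 libraries of E2 and WT, and Zfp759 not without E2 replicate 2. On chromosome 2, Zfp965 and Zfp970 fell, to 32.1, 26 and 28.5 and 139, 136 and 145 from 59.7, 74.9 and 52.2 and 258, 377 and 243, and both calls were lost without WT replicate 2 (log2 fold changes -0.96 and -0.84). The call of Zfp965 was lost also without E2 replicate 2 or 3, and 94.6% of its windows occur in other genes, mainly Zfp973.

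After 4-OHT, E1E2 had 4 members called higher than WT (3.6%, all genes 5.51%) and 2 lower (1.8%, all genes 3.22%). Zfp809 stayed high at 1004, 906 and 974 and Zfp750 was at 13.8, 14.4 and 14.5, a ratio to WT of 14.3-fold (95% counting interval 4.58 to 72.4). Zfp978 and Zfp986 were called at means of only 7.21 and 5.41. Without WT replicate 2 their edgeR adjusted p was 0.0137 and 0.0339, and Zfp986 was lost also without E1E2 replicate 1, without WT replicate 1 or 3 and with DESeq2 (adjusted p 0.15, 0.0102, 0.0125 and 0.0138). The lower members were Zfp764 and Zfp965, of which Zfp965 was lost without WT replicate 2 (-0.89 on the log2 scale) and without E1E2 replicate 1 or 2.

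The clone with G9a and Glp mutated in this branch (E1E2 G9Gl) had higher levels of members on chromosomes 7, 8, 9, 13 and 17, and the chromosome 4 copies were not among them. Against WT, 15 members were called higher (13.5%, all genes 16.8%) and 4 lower (3.6%, all genes 8.41%). The largest rise of an expressed member was that of Zfp763 (chr17:33016863-33033402, 0% of windows shared), from 193, 303 and 208 normalized counts in WT to 2814, 2958 and 2719, a 12-fold change (3.59 ± 0.13 on the log2 scale, edgeR adjusted p = 3.2e-17). In all other conditions its libraries lay between 159.6 and 350.1. Zfp850 rose to 2677, 2903 and 2580.1 (1.49 ± 0.11), and Zfp809 to 1599.8, 1681 and 1650.1 (2.25 ± 0.11), its highest level in any line. Zfp882 on chromosome 8, which overlaps Zfp617 on the same strand and had no read in WT, had 38.8, 33.5 and 33.7, at least 35.7-fold higher, and at most 1.19 in any library outside E1E2 G9Gl and 6KO2. Zfp936 was called at 2.16, 4.63 and 5.18, from 10 raw reads. Zfp712 and Zfp759 on chromosome 13 reached 276, 261 and 299 and 207, 208 and 198. Zfp708 was called at 1.07, with the overlap with Gm28557 given above, and not without WT replicate 1 (0.90), without WT replicate 3 (0.79) or without E1E2 G9Gl replicate 1.

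The largest fall of a well-expressed member was that of Zfp827 (chr8:79028437-79193766, overlapping Gm45728 on the same strand), whose promoter window is the richest in CG of those printed. It had 809, 573 and 831 normalized counts in WT and 41, 40.5 and 20.7 in E1E2 G9Gl, a 21.2-fold reduction (-4.41 ± 0.17, edgeR adjusted p = 1.3e-16). Zfp979 fell from 16, 30.1 and 15.1 to 0, 3.47 and 3.89 (-3.08 ± 0.57), the opposite of its direction in E1, E1 S1S2 and both 6KO lines. Zfp770 was also called lower, by 2.01-fold, a call lost with DESeq2, RLE factors, the replicate block, only the 6 libraries compared, and without WT replicate 2 or E1E2 G9Gl replicate 2 or 3. The other chromosome 4 copies were at or near 0: Zfp978 had 1.08, 1.16 and 1.3, Zfp988 had 0, 3.47 and 2.59, and Zfp980, Zfp987 and Zfp989 had no read. Summed leukocyte markers were 620.4 to 653 and summed neuronal markers 2284 to 2412 in this line, and their part was not tested.

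Relative to its parent E1E2, E1E2 G9Gl had 19 members called higher (17.1%, all genes 14.8%) and 6 lower (5.41%, all genes 6.78%). Zfp763 was 16.4-fold higher than in E1E2, Zfp882 was at least 34-fold higher, and Zfp936 was at least 3.84-fold higher. Lower members were Zfp750, Zfp827, Zfp978, Zfp979, Zfp986 and Zfp988. E1E2 exceeded E1E2 G9Gl by 36.4-fold (95% counting interval 6.18 to 1473) for Zfp750, and Zfp827 was 28.4-fold lower. The calls of Zfp978, Zfp986 and Zfp988 rest on few reads (3, 2 and 5 raw reads over the E1E2 G9Gl libraries), and each was lost when one of several libraries was left out: Zfp978 without each E1E2 G9Gl library and without E1E2 replicate 1 or 3 (edgeR adjusted p up to 0.0212), Zfp986 without each E1E2 G9Gl library and without E1E2 replicate 1 (up to 0.17), and Zfp988 without E1E2 G9Gl replicate 1 or 3 and without E1E2 replicate 2 or 3 (up to 0.0651).

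The second line without all 6 enzymes, 6KO2, had the chromosome 4 members high as in 6KO1. Against WT, 14 members were called higher (12.6%, all genes 15.3%) and 3 lower (2.7%, all genes 5.39%). Zfp978 had 1203, 968 and 1116 normalized counts, Zfp979 1481, 1350.1 and 1525 (6.12 ± 0.20 on the log2 scale over WT, edgeR adjusted p = 2.1e-17) and Zfp988 487, 415 and 489. Zfp980 was at least 354-fold and Zfp987 at least 109-fold above WT, and Zfp989 had 61, 53.7 and 51.9. On chromosome 7 Zfp936 had 76.5, 102 and 103 and Zfp977 24.8, 24 and 25.4. Zfp750 was at 16.5, 19.4 and 13.3. Zfp882 remained detectable at 7.24, 2.29 and 8.84, from 17 raw reads. The lower members were Zfp764, Zfp970 and Zfp965. Zfp970 had 111, 81.2 and 118 beside 258, 377 and 243 in WT (-1.50 ± 0.16), and 30.4% of its windows are shared. Zfp965 rested on 6KO2 replicate 1 (7.24, with 44.6 and 37.6 in the other libraries): without it the log2 fold change was -0.61, and without WT replicate 2 the adjusted p was 0.0129. Of the 2-cell-stage genes 2 were called higher in 6KO2, and summed neuronal markers were 4001 to 4445, whose part was not tested. Leaving out the chromosome 4 members reduced the 17 calls to 10, of which 7 were higher.

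Although 6KO2 was derived from the E1E2 G9Gl clone, Zfp763, Zfp827 and Zfp850 were close to or nearer their WT levels in 6KO2. 11 members were called higher than in E1E2 G9Gl (9.91%, all genes 7.19%) and 10 lower (9.01%, all genes 9.12%). Zfp763 had 207, 254 and 268 normalized counts, 11.7-fold below E1E2 G9Gl, and its groups in WT and 6KO2 overlap. Zfp827 had 423, 431 and 458, 12.6-fold above E1E2 G9Gl and below all 3 WT libraries, with a log2 fold change against WT of -0.75 ± 0.12 that did not reach the fold limit. Zfp850 had 577, 608 and 616 (-2.18 ± 0.11 against E1E2 G9Gl). Zfp809, Zfp712, Zfp791, Zfp970 and Zfp983 had log2 fold changes of -1.17, -1.59, -1.93, -2.02 and -1.27, and Zfp759 was 2.01-fold lower, a call lost without 6KO2 replicate 1 or 2 or E1E2 G9Gl replicate 1. The call of Zfp773, lower by 11.2-fold (95% counting interval 2.75 to 99), was lost without 6KO2 replicate 3 (edgeR adjusted p = 0.0105). In the other direction, the chromosome 4 members rose from at or near 0: Zfp980 by at least 299-fold, Zfp987 by at least 92.4-fold, Zfp989 by at least 47.5-fold and Zfp978 by 939.6-fold (95% counting interval 321 to 4559). Zfp991 on chromosome 4 was also called, at 1.03, but not without 6KO2 replicate 2 or 3 or E1E2 G9Gl replicate 3.

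The 2 lines that lack all 6 enzymes were compared directly to see how far independent clones with the same set of mutated genes differed in level. 15 members were called higher in 6KO1 (13.5%, all genes 9.77%) and 1 lower (0.901%, all genes 7.1%). Of the 111, 97 had a log2 fold change above 0 (87.4%), beside 51.2% of all genes. The shift was not particular to the members: in Zfp1 to Zfp699, 161 of 221 (72.9%) were above 0. The median was 0.41 in the members and 0.26 in Zfp1 to Zfp699. The largest differences were Zfp773, 19.1-fold (95% counting interval 4.99 to 162) higher in 6KO1, Zfp977 at 3.13 ± 0.22 on the log2 scale (edgeR adjusted p = 2.4e-11), Zfp750 at 2.82 ± 0.20 and Zfp936 at 1.81 ± 0.16. Zfp882 was lower in 6KO1, where it had no read, and 6KO2 was at least 6.75-fold higher. Among the chromosome 4 members, Zfp987 (1.38) and Zfp988 (1.13) were called, while Zfp978 (0.74 ± 0.12), Zfp979 (0.33 ± 0.13), Zfp980 (0.55 ± 0.12), Zfp986 (0.82 ± 0.18) and Zfp989 (0.63 ± 0.17) were not.

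Of the members named for a known role, all but Zfp708, Zfp750, Zfp809, Zfp827 and Zfp989 were called in no comparison. Zfp703, a transcriptional corepressor, and its relative Zfp704 had log2 fold changes against WT of -0.39 to 0.24 and -0.03 to 0.71. Zfp706, which restrains the self-renewal of embryonic stem cells, was lowest in 6KO1 at 2037, 2099 and 2107 normalized counts beside 3559, 3997 and 3398 in WT (-0.81 ± 0.051), short of the fold limit. Zfp830, needed for early development and splicing, ranged from -0.45 to 0.063. Zfp740 and Zfp961 ranged from -0.52 to 0.075 and from -0.48 to 0.12, and both overlap genes on the opposite strand. Zfp932, which binds endogenous retroviruses, was also called nowhere (-0.39 to 0.14), with 26.4% of its windows shared. Zfp819, a KRAB gene of pluripotent cells, had at most 4.89 normalized counts in any library and was not tested, and Zfp711, an X-linked gene, had no read. The retrovirus silencer Zfp809 was called in 5 lines against WT. Its order of mean normalized counts was WT (345 ± 13.1, SD, n = 3), E1 (495 ± 46.2), 6KO1 (614 ± 32.1), 6KO2 (730.3 ± 46.5), E1 S1S2 (849 ± 20.6), E1E2 (961 ± 50.3), E2 (1001 ± 227) and E1E2 G9Gl (1644 ± 41.1). The libraries of E2 overlapped those of 6KO2, E1 S1S2 and E1E2, and the WT and E1E2 G9Gl libraries were apart from those of every other condition.

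The calls were also counted by features that the symbols did not choose, as a description. In 6KO1, 20 of 85 tested members with a KRAB box and 3 of 26 without one were called higher, with median log2 fold changes of 0.59 and 0.35, or 23.5% and 11.5% beside 20.6% of all genes. Members with at least 11 fingers had 14 of 60 called higher and those with fewer had 9 of 51. By CG in the promoter window, 13 of 48 with fewer than 10 and 6 of 49 with at least 10 were called higher, and the median CG count was 7 in called and 10.5 in other members with a window. By level over all 24 libraries, the lowest tertile held 14 of 37, the middle 6 of 37 and the highest 3 of 37. The tertiles include the 6KO1 libraries, and a member near 0 in WT passed the filter only through lines where it was higher. An excess of calls in the lowest tertile is thus partly built in, and no conclusion is drawn from it. These features overlap with the chromosome 4 members, of which 7 of 10 were called: outside chromosome 4, 16 of 101 were called higher and the median was 0.48. Among the 80 members that share under 10% of their windows, 15 were called higher in 6KO1, 13 in the E1E2 G9Gl line and 7 in 6KO2, while all 5 members called in E1 share more. These are 18.8%, 16.2% and 8.75%, beside 20.6%, 16.8% and 15.3% of all genes, so the first pair is near and the last below the share over all genes.

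Groups of neighbouring members differed in how many were called. Beside them, the share of all genes called higher was 15.3% for 6KO2, 16.8% for E1E2 G9Gl and 20.6% for 6KO1. The share called lower was 3.21% for E2, 5.11% for E1 S1S2 and 5.39% for 6KO2. The groups were not tested against these shares, and counts such as 2 of 6 or 1 of 13 are too few to set apart from them. Of the 7 members on chromosome 4 between 146971976 and 147848366 (GRCm38), 4 were called higher in 6KO1 and in 6KO2, with median log2 fold changes of 6.45 and 6.12, and in E1E2 G9Gl the median was -0.23. Zfp980, Zfp986 and Zfp987 lie nearer the centromere on the same chromosome, from 145670685 to 146126621, and were called higher in both lines as well. In the 7 members of chromosome 7 from Zfp977 to Zfp819, 3 of 6 tested were called higher in 6KO1 and 2 in E1E2 G9Gl and in 6KO2. The 13 members on chromosome 17 from Zfp948 to Zfp945 moved less, with 1 call in 6KO1 (Zfp983) but a median of 0.62, and 2 calls lower in E1 S1S2 (Zfp760 and Zfp983). The 6 on chromosome 8 from Zfp930 to Zfp866 had no call in any line against WT and a median of 0.10 in 6KO1. In the groups on chromosome 2 the 2 calls in E2 and in 6KO2 were falls.

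**Figure D4:**
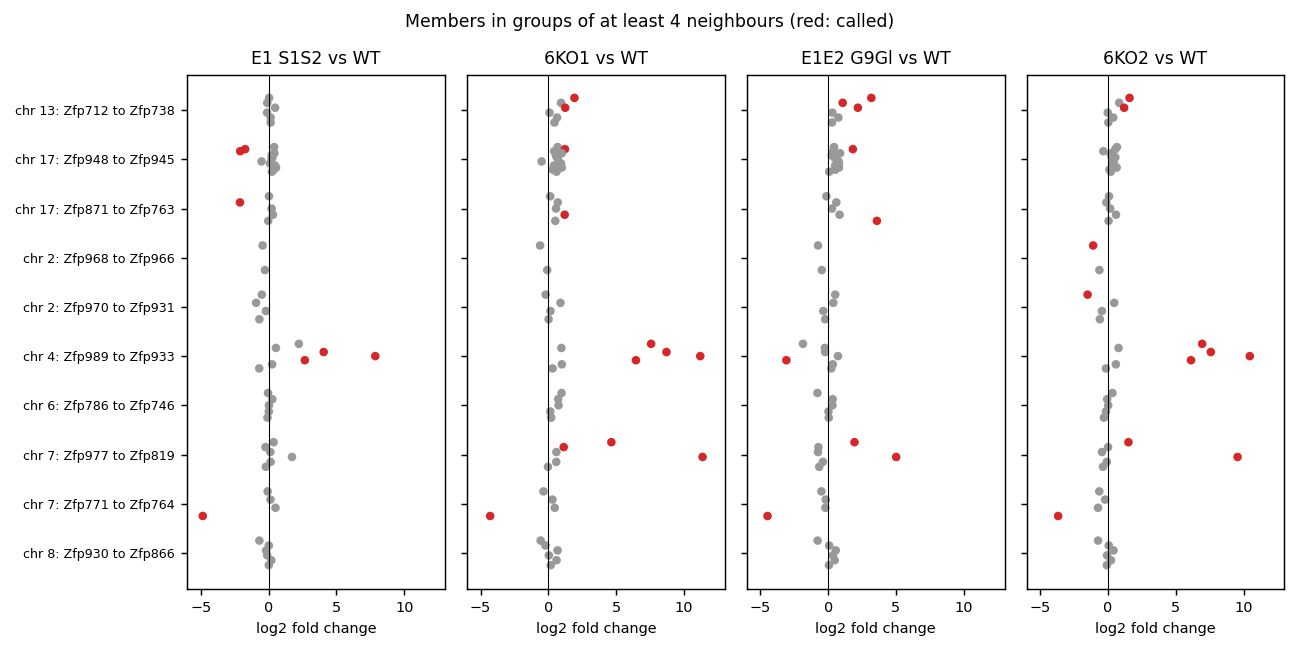
Log2 fold change against WT (horizontal axis) of each tested member in the 10 groups of at least 4 neighbouring members (vertical axis), for 4 lines, with called members in red. Values of members without reads in a group are fitted. The chromosome 4 group reaches 11.19 in 6KO1 and 10.45 in 6KO2 and in E1E2 G9Gl stays between -3.08 and 0.72.

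Genes that work with KRAB zinc finger proteins in silencing were compared as a list of 28 names, of which 27 were found and tested, among them Trim28, Setdb1, the HP1 genes Cbx1, Cbx3 and Cbx5 and the HUSH complex. In 6KO1, 5 were called higher and 2 lower (median log2 fold change -0.25), in E1E2 G9Gl 4 were higher and 1 lower (-0.30), in 6KO2 2 were higher (-0.22), in E1 3 were higher, and in each of E1 S1S2, E2 and E1E2 2 were higher. Called shares over all genes were 20.6% higher and 10.2% lower in 6KO1, 16.8% and 8.41% in E1E2 G9Gl and 15.3% higher in 6KO2. The list's counts in these lines are near or below those of all genes. For the remaining lines the all-gene share called higher was 6.65% (E1 S1S2), 5.51% (E1E2), 2.9% (E2) and 2.27% (E1). Beside these, 3 of 27 for E1 and 2 of 27 for E2 lie above the all-gene share, and the other counts lie near it. This excess rests on 2 or 3 genes and was not tested. The lower genes were Pphln1 and Hdac2 in 6KO1 and Setdb1 in E1E2 G9Gl. Atf7ip, the partner that stabilizes Setdb1, and Trim24 were called higher in all 7 lines, by 1.57 to 2.11 and 1.42 to 2.29 on the log2 scale. Atf7ip2 rose by 3.29 in E1 and 5.53 in 6KO1 and differed from WT by 0.48 in 6KO2, without a call. Trim28, the corepressor itself, was called in no comparison, with -0.70 in E1E2 G9Gl as its lowest value against WT.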

How the data were processed

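The 24 libraries were made as stranded total RNA and sequenced in pairs of 75 bases. Per the study's methods and the submitters' processing notes, the authors trimmed reads with cutadapt 1.8.1, aligned them with STAR 2.5.2b to GRCm38 and counted genes and repeats with TEtranscripts. The strand setting of the counting and the treatment of multi-mapped gene reads are not given in the sources used here. The deposited values are raw counts per gene or repeat, not normalized, with 47937 gene and 1445 repeat rows. Every column was matched to a sample. 1 row that names no feature was left out, at most 0.0023% of the counts of a library.

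The members and gene lists were chosen with earlier results of these data known. Genes were kept with edgeR's filterByExpr (18565 of 47937), scaled by TMM and tested in 1 quasi-likelihood fit over all 8 conditions with 12 contrasts (edgeR 4.0.16, R 4.3.3), and p-values were adjusted by Benjamini and Hochberg over all tested genes. A call needed an adjusted p of at most 0.01 and a fold change of at least 2, limits taken from the study, which used DESeq2 and states a P of at most 0.01 without saying that it was adjusted. Normalized counts are counts divided by the effective library size and multiplied by its mean. Folds against a group without reads are bounds against 3 reads over that group, and 95% intervals of ratios are exact binomial and, as the bounds, cover counting error only. Genes were named by size in both 6KO lines, by the 3 largest rises and falls of each comparison, by known role, by the 5 highest WT levels and by absence from WT, and the others after their values were seen. Symbols, exons and coding sequences came from GENCODE vM21 (GRCm38), from which KRAB boxes and fingers were found by pattern, and promoters from RefSeq. On simulated counts for 6KO1 against WT, over 18565 genes, edgeR recovered 199 and DESeq2 1.42.0 198 of 200 changed genes. Recovery at low counts or near the fold limit was not tested separately. Alternatives were DESeq2, other scalings and filters, other limits, the 6 libraries of a comparison alone, a replicate block and each library left out.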

Additional observations from a re-analysis of the deposited data

Results flagged for a closer look

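Of the 111 tested members, 16 differed between the 2 lines that lack all 6 enzymes by edgeR's test of 6KO1 against 6KO2, and 15 of them were higher in 6KO1. The log2 fold changes were 4.04 for Zfp773, 3.13 for Zfp977, 2.82 for Zfp750, 1.81 for Zfp936, 1.38 for Zfp987, 1.30 for Zfp970, 1.27 for Zfp791, 1.20 for Zfp747, 1.15 for Zfp772, 1.13 for Zfp988, 1.12 for Zfp976, 1.11 for Zfp950, 1.05 for Zfp784, 1.04 for Zfp941 and 1.03 for Zfp975. Zfp882 was lower in 6KO1 with a fitted value of -5.66, which is no bound because 6KO1 had no read. The lines are 1 clone each, so the order of the mutations and the clone cannot be told apart.

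The effect of 4-OHT differed between the WT line and the E2 clone for 5 members, in each with the more positive log2 fold change in the WT line, by the interaction test added after the data were seen. For Zfp712 and Zfp759 the effects were of opposite sign and like size. The difference in log2 fold change was 3.80 for Zfp978 (edgeR adjusted p = 0.00684), 3.74 for Zfp986 (0.00777), 1.80 for Zfp979 (0.0024), 1.46 for Zfp712 (3.3e-04) and 1.43 for Zfp759 (2.0e-04). The values of Zfp978 and Zfp986 rest on few reads in WT and E2. The whole-gene count of Setdb1 did not fall after 4-OHT in the E2 clone, and its part in these differences was not tested. This count includes exons that the deletion leaves in place. The study reports from western blots that Eset1 deletion was efficient in its mutant lines.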

How the results depend on the processing

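Of 117 values for single members, each recomputed under the alternatives for 1791 values in all, 1729 kept their direction and call, 62 lost the call and none changed sign. The 62 belong to 18 values, and each of the 18 was lost without at least 1 library. The 62 do not cover every loss. With only the 6 libraries compared, the calls against WT of Zfp986 in E1 and of Zfp764 in 6KO1 were lost, among others outside the 62. Losses under the filter on a mean normalized count above 100 are also outside it, so the tally overstates how stable the calls were. Zfp799 in E1E2 G9Gl against E1E2, for example, had a log2 fold change of 0.99 without E1E2 replicate 1. Where the cause of a loss is not fewer samples, it was not tested.

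The counts of called members moved by over 1.5 times mainly with the fold limit and the filter on level. For each comparison the count is given with no fold minimum, with a mean normalized count above 100, without members that share at least 10% of their windows and without the members on chromosome 4, of which the last 2 were added after the data were seen. The 5 calls of E1 against WT became 16, 4, 0 and 0. The 13 calls of E1 S1S2 against WT became 37, 8, 7 and 8. The 25 calls of 6KO1 against WT became 77, 12, 16 and 18. The 8 calls of E2 against WT became 26, 3, 4 and 7. The 6 calls of E1E2 against WT became 30, 2, 2 and 4. The 19 calls of E1E2 G9Gl against WT became 63, 8, 15 and 18. The 17 calls of 6KO2 against WT became 51, 6, 7 and 10. The 1 call of E1E2 against E2 became 9, 0, 1 and 1. The 27 calls of 6KO1 against E1 S1S2 became 72, 12, 17 and 20. The 25 calls of E1E2 G9Gl against E1E2 became 69, 14, 18 and 21. The 21 calls of 6KO2 against E1E2 G9Gl became 47, 10, 12 and 13. The 16 calls of 6KO1 against 6KO2 became 69, 8, 10 and 14. Fitting only the 6 libraries compared gave 2 in E1, 5 in E2 and 3 in E1E2 against WT. Leaving out 1 library gave 3 to 6 in E1, 0 to 1 in E1E2 against E2 (0 without E2 replicate 2) and 22 to 36 in 6KO1 against WT, where 36 came without WT replicate 2, and 16 to 24 in E1E2 G9Gl against WT.

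Replicate numbers did not pair the libraries, since the deviations of same-numbered libraries had correlations of -0.242 to 0.197. A fit with a block for the replicate number called 27 in 6KO1, 18 in E1E2 G9Gl against WT and 23 in E1E2 G9Gl against E1E2, where the block lost the calls of Zfp986 and Zfp988, and no other count changed. Other scalings moved the median of the members by at most 0.036 on the log2 scale.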
